A study of Homo sapiens with 26 samples.

Results

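The 48 genes described here are all those with a symbol from PSMA, PSMB, PSMC, PSMD, PSME, PSMF or PSMG followed by a number, out of 19478 transcripts listed in each of the 4 deposited count tables. They cover the 7 alpha and 7 beta subunits of the standard 20S core, 3 immunoproteasome subunits, 2 tissue-specific core subunits, 6 ATPases and 3 other subunits of the 19S base, 8 lid subunits, 3 base and 4 core assembly chaperones, 4 activator genes and 1 inhibitor. The rule reads the symbols alone. All 48 had a coding length in GENCODE 29, and 47 had at least 1 count in some library.

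The series compared ways of removing ribosomal RNA fragments from ribosome profiling libraries, in which the mRNA stretches covered by ribosomes are sequenced after nuclease digestion. It holds 26 libraries. HEK293T, a human embryonic kidney line carrying the SV40 large T antigen, gave 2 undepleted libraries and 2 each after Ribo-Zero Gold, RiboCop and NEBNext, with fragments of 15 to 35 nt selected. K562, a human chronic myeloid leukaemia line with erythroid features, gave a kit table of 20 to 34 nt fragments with 2 libraries each that were undepleted, FastSelect, riboPools or riboPools eluted cold, and 1 each for Ribo-Zero Plus alone, with oligos, with formaldehyde, and with both. Another K562 experiment on size selection gave NEBNext and undepleted libraries, 1 of each at 20 to 34 nt and at 20 to 60 nt, and HEK293FT, a fast-growing relative of HEK293T, gave 1 undepleted library and 1 depleted with custom oligos at 15 to 35 nt. No genotype change or drug treatment distinguished the groups, and all lysates were made with cycloheximide. Nothing in the labels says whether replicates came from separate cultures, so p-values measure the spread between these libraries, which may be technical.

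The proteasome is the cell's main machine for degrading proteins tagged with ubiquitin. Its barrel-shaped 20S core holds stacked alpha and beta rings, with the cutting sites on beta subunits, and the 19S regulatory particle that caps it recognises, unfolds and feeds in the substrate. Interferon and some immune cells switch the catalytic beta subunits PSMB5, PSMB6 and PSMB7 for PSMB8, PSMB9 and PSMB10, giving the immunoproteasome that shapes peptides for MHC class I, and dedicated chaperones of the PSMG and PSMD families build core and base without ending up in the finished particle.

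Library totals ran from 46858 to 5795774 counts, and proteasome genes took 0.948% to 1.2% of them. The Ribo-Zero Plus libraries to which oligos (184722 counts), formaldehyde (116742) or both (165153) were added stood apart as the 3 shallowest of the K562 kit table, so results that rest on them are also given without them. The titles of 2 K562 libraries call them undepleted where another label names NEBNext, and they were grouped by title. Markers fitted the labelled cell lines: 10 erythroid and leukaemic genes summed to between 3736 and 12972 CPM (counts scaled to 1000000 per library) in K562 libraries and between 0 and 6.52 in HEK libraries, with GATA1, HBG1, HBG2, HBE1 and ALAS2 at 0 in all 10 HEK libraries. The 6 embryonic kidney and neuronal genes summed to between 254 and 645 CPM in HEK libraries and between 0 and 4.35 in K562, with PAX2, EYA1 and NEFM at 0 there.

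The first comparison was between subunits. Genes were compared as CPM per kilobase of coding sequence, which is a density of ribosome footprints and says nothing of mRNA or protein amount. In the 7 undepleted libraries the median density of the 14 standard core subunits was 392 to 518 CPM per kb. The core subunits, which stand in equal number in the particle, did not have equal footprint density: within a library the highest exceeded the lowest by 2.84 to 5.33 times. The SD of their log2 densities was 0.452 to 0.634, where counting error alone gave 0.0732 to 0.375. In each of these 7 libraries the spread was above counting error.

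PSMB1, a structural beta subunit, had the highest density of the core in 6 of the 7 undepleted libraries. Its density relative to the core median of the same library was 1.66 ± 0.0204 (SD, n = 2) in HEK293T, 2.15 in HEK293FT and 2.22 ± 0.0749 (SD, n = 2) in the K562 kit table. PSMA4, an alpha subunit, was highest in the remaining library, HEK293T replicate 1. PSMB6, which carries the caspase-like site, was lowest in 4 of the 7, at 0.717 ± 0.196 in HEK293T and 0.480 ± 0.0369 in K562 (SD, n = 2 each). PSMA6 was lowest in 2 and PSMA1 in 1. Over all 26 libraries PSMB1 was highest in 19 and PSMB6 lowest in 14. Across the 14 genes, the log2 densities of HEK293T and HEK293FT correlated with Pearson's r = 0.938, those of the kit-table K562 libraries and the undepleted 20 to 34 nt library with r = 0.946, and those of HEK293T and kit-table K562 with r = 0.738. These correlations are across genes, which share coding lengths between the compared libraries and are not independent replicates.

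Genes of the 19S particle lay below the core at every undepleted library's role median. The base ATPases PSMC1 to PSMC6, the ring that unfolds the substrate, had a median of 0.387 to 0.421 of the core in the 3 undepleted HEK libraries and 0.378 to 0.598 in the 4 undepleted K562 libraries. The 8 lid subunits had a median of 0.383 to 0.452 in HEK and 0.425 to 0.578 in K562. Within the lid, PSMD8 was densest in HEK293T at 0.737 ± 0.167 (SD, n = 2) of the core, and PSMD3, PSMD6, PSMD7, PSMD11, PSMD12, PSMD13 and PSMD14 lay between 0.313 and 0.469 there. The ubiquitin receptor PSMD4 reached 0.655 ± 0.201 in HEK293T and 0.668 ± 0.0299 in K562 (SD, n = 2 each). PSMD1, a scaffold protein of the base, was lowest of the base and lid in K562 at 0.159 ± 0.000664 (SD, n = 2), and PSMD2 stood at 0.343 ± 0.00774.

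Medians of the core chaperones and activators were lower still. The core chaperones PSMG1 to PSMG4 had a median of 0.155 to 0.190 of the core in undepleted HEK and 0.199 to 0.315 in undepleted K562. The activator medians were 0.196 to 0.296 and 0.189 to 0.254, although PSME3, which encodes a nuclear cap not tied to ubiquitin, stood at 0.634 ± 0.0261 in HEK293T and 0.512 ± 0.0215 in K562 (SD, n = 2 each). PSME1 and PSME2, the partners of the interferon-inducible cap, were at 0.187 ± 0.128 and 0.209 ± 0.132 in HEK293T and at 0.160 ± 0.0357 and 0.250 ± 0.0109 in K562. PSME4, a single-chain cap, was at 0.0597 ± 0.00321 and 0.0594 ± 0.000238. PSMF1, an inhibitor of the core, was at 0.339 ± 0.0228 in HEK293T and 0.243 ± 0.0437 in K562. In the plot of densities by role the core had the highest medians and the immunoproteasome and tissue-specific genes the lowest. Single genes of the other roles overlapped. In undepleted kit-table K562 the core chaperone PSMG1 stood at 0.572 and 0.565 of the core, above the medians of the base ATPases and the lid.

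**Figure D1:**
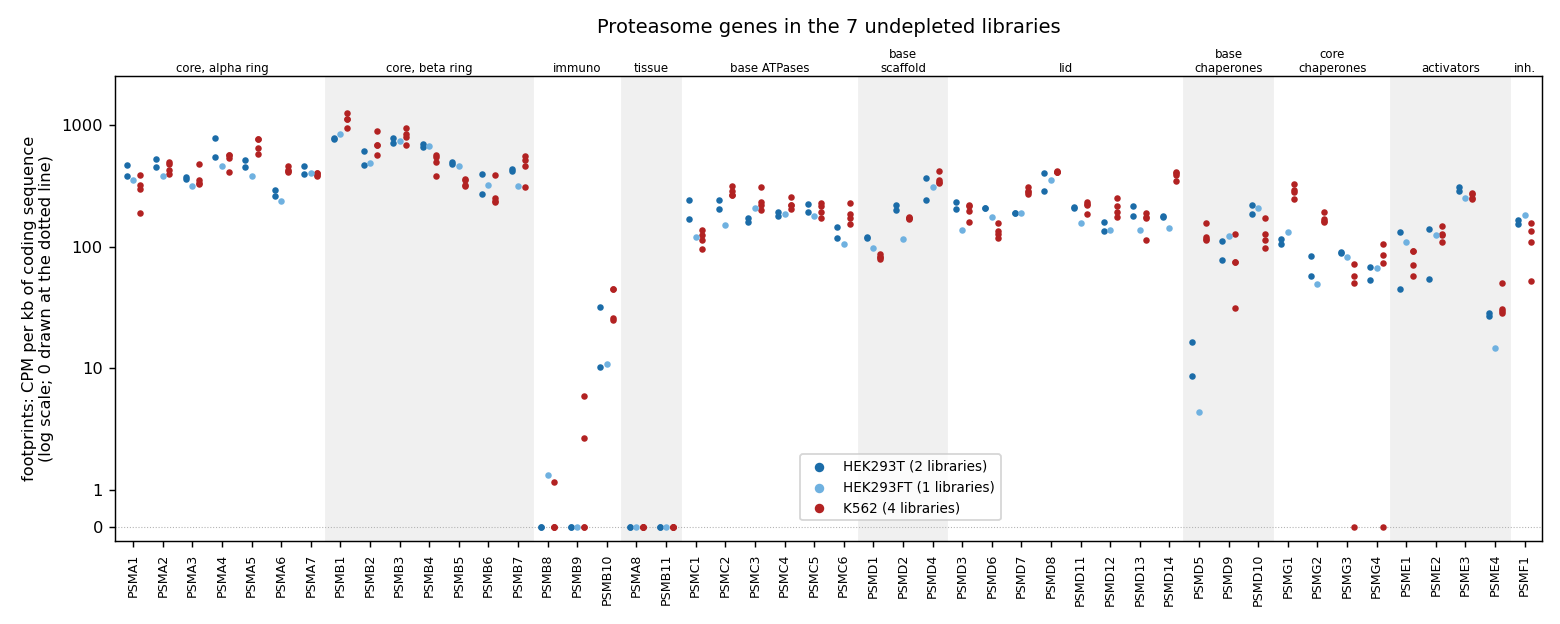
Footprint density (CPM per kb of coding sequence, log scale, 0 drawn at the dotted line) of the 48 genes, grouped by role, with 1 point for each of the 7 undepleted libraries. The core rings lie highest, PSMB8, PSMB9, PSMA8 and PSMB11 lie at or near 0, and PSMD5 is low in the HEK libraries but not in K562.

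Of the 3 immunoproteasome genes, PSMB8 and PSMB9 had few or no footprints in any of the lines, and PSMB10 had more. PSMA8, the testis form of an alpha subunit, had 0 counts in all 26 libraries, and PSMB11, the thymus form of a catalytic beta subunit, had 1 count in 1 K562 library. PSMB8 had 2 counts over the 10 HEK libraries, of 8476008 in all, and 23 over the 16 K562 libraries, of 27561047. PSMB9 had 12 and 72 counts in the same libraries. PSMB10 was the most abundant of the 3, with 123 counts in HEK and 701 in K562, and its level ran from 8.33 to 26.1 CPM in HEK libraries and from 0 to 114 CPM in K562 libraries. For comparison its standard counterpart PSMB7 had 2433 and 11550 counts. With 3 counts as the floor, a gene at 0 could have reached 0.518 CPM in the deepest library and 64.0 CPM in the shallowest. Intervals and floors here cover counting error only, since nothing in the tables separates molecules from PCR copies.

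The summed density of PSMB8, PSMB9 and PSMB10 was expressed as a share of the density of those genes and of PSMB5, PSMB6 and PSMB7 together. In undepleted HEK293T it was 0.769% and 2.62%, from 1 and 4 immunoproteasome counts. In undepleted kit-table K562 it was 4.24% and 2.80%, from 44 and 26 counts. The K562 values lay above the HEK293T values, 3.52% ± 1.02 against 1.69% ± 1.31 (SD, n = 2 each), and the exact two-sided permutation test gave p = 0.333, the smallest that 2 against 2 libraries allow. HEK293FT stood at 1.10% undepleted and 1.79% with custom oligos. Over all 10 HEK libraries the share ran from 0.769% to 2.62% with a median of 1.77%. Over all 16 K562 libraries it ran from 0% to 15.8% with a median of 3.05%, and without the 3 shallow Ribo-Zero Plus libraries from 2.43% to 4.38%. The 15.8% came from the library with oligos, where PSMB10 and PSMB7 had 21 counts each, and the 0% from the library with formaldehyde. HEK and K562 ranges overlapped narrowly even without the shallow libraries. As pooled counts, with no length correction, the share was 1.78% in HEK (exact 95% interval 1.5 to 2.1) and 3.15% in the 13 other K562 libraries (2.94 to 3.38). The HEK293FT library with custom oligos gave 5019 of the 7693 HEK counts of these genes. The riboPools libraries eluted cold gave 10463 of the 24511 K562 counts. These intervals treat footprints as independent and do not cover the spread between libraries, so they are no test between the lines.

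Genes that work with the immunoproteasome were counted from a list of 9 antigen presentation and interferon genes. In K562 against HEK293T 6 of the 9 could be tested, and 2 were called higher by edgeR's quasi-likelihood test with Benjamini-Hochberg adjustment under TMM and under total count scaling. These were B2M, the MHC class I light chain (log2 fold change 0.92 ± 0.18, adjusted p = 2.27e-06), and TAPBP, a peptide-loading chaperone (2.11 ± 0.68, adjusted p = 0.00671). Among 6 markers of other immune cells, PTPRC and LYZ were present in K562, the list summed to between 135 and 227 CPM there against 0 to 6.52 in HEK, and HLA-DRA was at 0 in K562. Their part in the immunoproteasome values was not tested.

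Upstream sequence is shown for PSMB8, PSMB9, PSMB10 and PSME2 because they are textbook targets of interferon signalling. Of the 48 genes 42 had a RefSeq promoter (build GRCh38.p14). The 250 bases before the start were searched on both strands for 3 motifs: an interferon-response core (GAAA, any 2 bases, GAAA), the interferon-gamma-activated site TTCNNNGAA and the antioxidant response core TGACNNNGC, which the NFE2L1 and NFE2L2 factors bind in proteasome genes. The interferon-response core was in 5 of 42 promoters of proteasome genes (11.9%) and in 3.02% of all 35116 promoter windows, TTCNNNGAA in 6 (14.3%, all windows 6.57%) and TGACNNNGC in 10 (23.8%, all windows 10.9%). A match is a string of letters and not evidence of binding. These 5 were PSMA4, PSMB4, PSMB10, PSME2 and PSMG4, with identical letters in PSMB10, PSME2 and PSMG4. The match is shown in capitals, with 10 bases on each side, for PSMB10 (chr16:67936852-67936881, minus strand) and for PSME2 (chr14:24146619-24146648, minus strand), both inside an exon annotated as UTR of the same gene. The TTCNNNGAA match of PSMB8 (chr6:32844094-32844122, minus strand) lies upstream of its counted transcript. The stretch overlaps the antisense lincRNA PSMB8-AS1 and an exon of a PSMB8 transcript annotated as retained intron.
PSMB10: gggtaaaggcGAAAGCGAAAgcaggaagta
PSME2: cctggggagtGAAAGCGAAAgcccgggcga
PSMB8: aactgtccttTTCTCGGAAaaggcagggg
PSMB9 held neither the interferon-response core nor TTCNNNGAA in its window and 1 TGACNNNGC match on the other strand, in capitals in the upstream stretch chr6:32853979-32854160 (plus strand). This stretch overlaps an exon of a PSMB9 transcript annotated as retained intron.
PSMB9: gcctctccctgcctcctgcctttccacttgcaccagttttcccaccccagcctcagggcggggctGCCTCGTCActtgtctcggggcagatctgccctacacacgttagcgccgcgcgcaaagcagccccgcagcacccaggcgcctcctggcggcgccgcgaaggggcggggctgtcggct

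The second comparison was between cell lines, in undepleted libraries so that no kit entered. K562 of the kit table was set against HEK293T, 2 libraries each. Of the 48 genes 44 passed the low-count filter. Cell line, experiment, growth medium and fragment sizes differed together and cannot be told apart, and in bulk samples fewer cells of a kind and less RNA per cell cannot be told apart either. With edgeR's TMM scaling of the libraries 18 of the 44 genes (40.9%) were called at an adjusted p under 0.05, beside 39.1% of all 7304 genes tested, so the share that changed was near the background. By direction 16 were higher in K562 (36.4%, background 20.8%) and 2 lower (4.55%, background 18.3%). This split depended on the scaling: with libraries scaled by total counts, which moved the median log2 fold change of all genes from 0.04 to -0.15, 8 were higher (18.2%, background 15.9%) and 7 lower (15.9%, background 23.6%). Called in the same direction under both scalings were 10 genes: PSMA5, PSMA6, PSMB1, PSMD5, PSMD7, PSMD14, PSMG1 and PSMG2 higher, and PSMB5 and PSMD10 lower. DESeq2 called 15, all higher, so that PSMB5, PSMC2 and PSMD10 were not called by it. Without the second undepleted HEK293T library 8 were called, all higher. Shares over all genes for DESeq2 and for the left-out library are not given here. With TMM the median log2 fold change of the 44 was 0.29, beside 0.04 over all genes.

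The largest difference was in PSMD5, a base chaperone that binds the ATPase PSMC2 during assembly and is absent from the finished particle. PSMD5 had 3 and 2 counts in the undepleted HEK293T libraries and 207 and 176 in the undepleted kit-table K562 libraries. Its level was 25 and 13 CPM in HEK293T, 6.66 in HEK293FT, and 182 and 171 in K562. The fitted log2 fold change was 3.42 ± 0.42 (adjusted p = 1.04e-14, edgeR's quasi-likelihood test), on counts that let the gene pass the filter only through K562. As pooled CPM the ratio was 9.67, with an exact 95% interval of 4.11 to 29.9 for counting error. That interval, from 5 HEK293T counts in all, is wider than the fitted SE implies. The SE and adjusted p therefore overstate the precision of the fit. Over depleted and undepleted libraries together all 8 HEK293T libraries had 1 to 6 counts each, 13.1 CPM pooled (8.41 to 19.5), both HEK293FT libraries together had 58 counts, 8.72 CPM pooled (6.62 to 11.3), and all 16 K562 libraries had 4986 counts, 181 CPM pooled (176 to 186). The lowest K562 library, at 94.2 CPM, was above the highest HEK library, at 25 CPM, and the highest K562 value of 401 CPM came from the shallow library with oligos. Per coding length PSMD5 stood at 0.0270 ± 0.0124 of the core in HEK293T and 0.231 ± 0.0183 in K562 (SD, n = 2 each).

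The other base chaperones did not share this pattern. PSMD9 had 75.0 and 52.1 CPM in HEK293T and 50.2 and 50.4 in K562, with a log2 fold change of -0.14 ± 0.39 and a 95% interval of -0.91 to 0.63. PSMD10, also named gankyrin and known as an oncoprotein that binds RB, had 125 and 149.9 CPM in HEK293T against 66.1 and 76.6 in K562, with a fitted change of -0.80 ± 0.28 on the log2 scale (adjusted p = 0.0149). The counted PSMD5 transcript spans chr9:120816053-120842984 (GRCh38, minus strand, 10 exons, coding length 1512 nt). Its upstream stretch, chr9:120842985-120843172 (minus strand), overlaps an exon of the noncoding CUTALP transcript on the opposite strand. It is printed because PSMD5 differed most between the lines, and holds 1 TGACNNNGC match, in capitals.
PSMD5: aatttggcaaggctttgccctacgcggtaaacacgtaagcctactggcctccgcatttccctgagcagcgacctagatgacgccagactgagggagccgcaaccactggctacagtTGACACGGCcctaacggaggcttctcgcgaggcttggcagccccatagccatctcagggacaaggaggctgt

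Core chaperones followed in size. PSMG1 and PSMG2 form the pair that starts the alpha ring. PSMG1 had 99.98 and 91.2 CPM in HEK293T and 245 and 253 in K562, a log2 fold change of 1.55 ± 0.25 (adjusted p = 7.38e-09). PSMG2 had 66.7 and 45.6 CPM in HEK293T and 127 and 135 in K562, a log2 fold change of 1.41 ± 0.33 (adjusted p = 0.000152). The other pair, PSMG3 and PSMG4, had fold changes of -0.56 ± 0.55 and 0.74 ± 0.58 at 13 and 19.2 counts a library on average, and was not called. POMP, the chaperone that closes the core and is no member of the symbol family, had a log2 fold change of 0.65 ± 0.20 (adjusted p = 0.00498), which was not called with total count scaling (0.45 ± 0.20, adjusted p = 0.0648).

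In the lid PSMD14, the deubiquitinase that cuts the ubiquitin chain off the substrate, had 167 and 163 CPM in HEK293T, 133 in HEK293FT, and 363 and 379.9 in K562. Its log2 fold change was 1.33 ± 0.20 (adjusted p = 2.1e-10). Over all libraries it ran from 108 to 173 CPM in HEK and from 291 to 472 in K562, so that the lines did not overlap. PSMD7, its noncatalytic partner in the lid, rose by 0.72 ± 0.20 (adjusted p = 0.00171), and PSMD8 and PSMD12 by 0.40 ± 0.15 and 0.59 ± 0.20, which were not called with total count scaling. PSMD8 was at 0.22 without HEK293T undepleted replicate 1, where it was not called, and at 0.73 without replicate 2. PSMD3, PSMD6, PSMD11 and PSMD13 were not called, with log2 fold changes of 0.17, -0.34, 0.30 and 0.08. Of the base ATPases PSMC2, PSMC3 and PSMC6 were called at 0.41 ± 0.17, 0.61 ± 0.19 and 0.62 ± 0.22, again not with total count scaling, and PSMC1, PSMC4 and PSMC5 were not, at -0.44, 0.40 and 0.05. The scaffold and receptor genes PSMD1, PSMD2 and PSMD4 were not called, at -0.40, -0.11 and 0.35.

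In the core the subunits moved in both directions. PSMA5 had 325 and 371 CPM in HEK293T and 554 and 549 in K562, a log2 fold change of 0.82 ± 0.15 (adjusted p = 3.78e-07). PSMA6 rose by 0.77 ± 0.19 and PSMB1 by 0.70 ± 0.12. PSMB5, the subunit with the chymotrypsin-like site that bortezomib blocks, had 391.6 and 378 CPM in HEK293T and 247 and 252 in K562, and fell by 0.46 on the log2 scale (SE 0.16, adjusted p = 0.0168). PSMB2, PSMB3 and PSMB7 were called higher, at 0.55, 0.43 and 0.49, but not with total count scaling. PSMA1, PSMA2, PSMA3, PSMA4, PSMA7, PSMB4 and PSMB6 were not called, with values from -0.26 to 0.13. PSMB10, the only immunoproteasome gene that passed the filter, had 0.82 ± 0.63 with a 95% interval of -0.41 to 2.06. The activators PSME1 to PSME4 and the inhibitor PSMF1 were not called, at -0.03, 0.63, -0.04, 0.28 and -0.19.

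Copies of 12 of the 48 genes are annotated as 32 pseudogenes, and how the deposited counting treated reads that match both is not given in the sources used here. They include PSMC1 with 13, PSMA6 with 4, PSMA2 and PSMD10 with 3 each and PSMD7 with 1, so their values are uncertain. PSMD5, PSMD14, PSMG1, PSMG2, PSMA5, PSMB1 and PSMB5 have none by name.

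A second pair of experiments shares no library with the first: the 2 undepleted K562 libraries of the size-selection table against the undepleted HEK293FT library. The lone HEK293FT library was assumed to vary like the K562 pair. That pair are not replicates: they were selected at 20 to 34 nt and at 20 to 60 nt, and the second had only 46858 counts. The spread used here thus includes size selection. This comparison was chosen after seeing the data. It called 12 of 41 genes (29.3%, background 32.5%). Of these 8 were also called in the first, in the same direction: PSMA5, PSMA6, PSMB1, PSMC2, PSMD5, PSMD14, PSMG1 and PSMG2. They made up 44.4% of the first list and 66.7% of the second. PSMD5, with 6 counts in the HEK293FT library, passed the filter through its K562 level, and its fitted log2 fold change was 4.70 ± 0.67. It passed that way in the first comparison too, so its place in both lists adds no support to the agreement. PSMD14 had 1.37 ± 0.23, PSMG1 1.16 ± 0.25 and PSMG2 1.83 ± 0.45. PSMB5 and PSMD10 had -0.42 ± 0.21 and -0.44 ± 0.31 and were not called. Called here and not in the first were PSMB4 and PSMF1, lower at -0.60 and -1.39, and PSMD2 and PSME4, higher at 0.50 and 1.09. The K562 pair differed in PSMF1, with 42.1 CPM at 20 to 34 nt and 128 at 20 to 60 nt, beside 148 in HEK293FT. PSMB3 was -0.13 ± 0.17 here against 0.43 ± 0.14 in the first. The same sign in both was seen for 35 of 41 genes. Matching shares over all genes, for the sign and for the genes called in both, are not given here. This agreement therefore cannot be read as particular to proteasome genes.

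**Figure D2:**
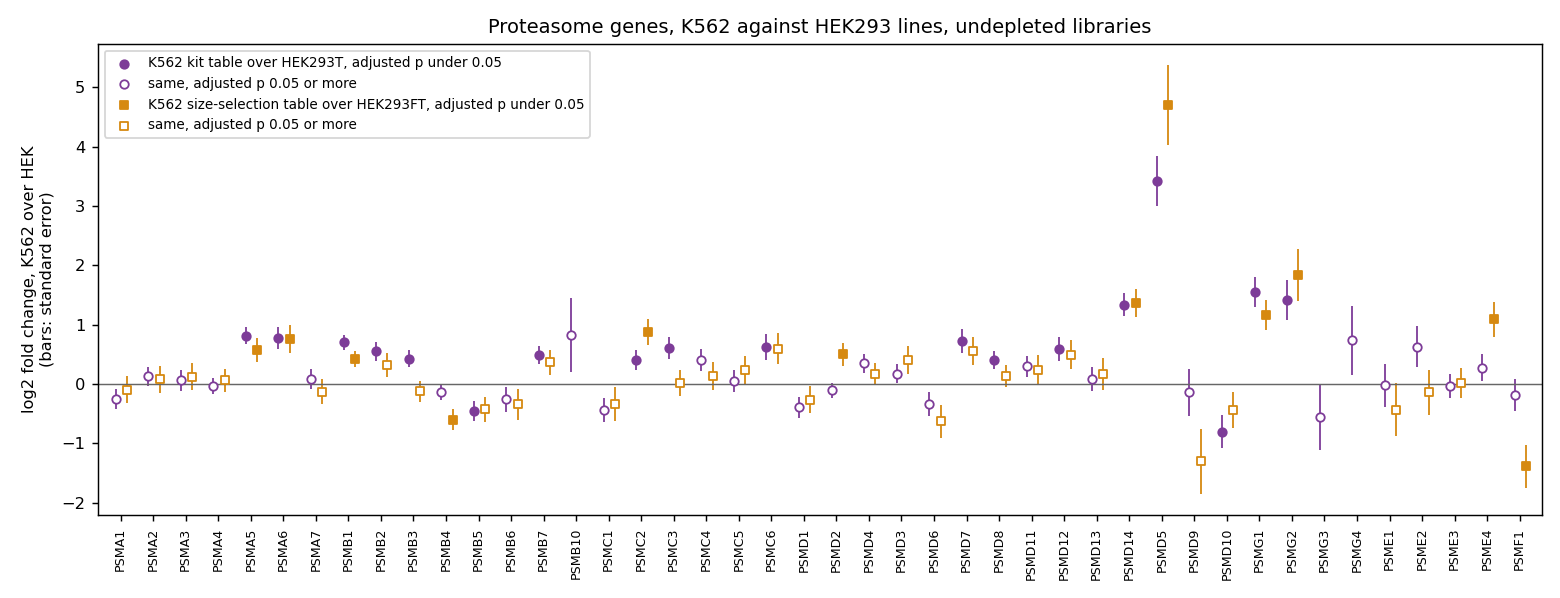
Log2 fold change with its standard error for each gene tested, K562 over HEK, in 2 comparisons of undepleted libraries that share no library. Filled symbols passed an adjusted p of 0.05. PSMD5, PSMD14, PSMG1 and PSMG2 are filled and above 1 in both. PSMD5 passed the low-count filter only through its K562 counts in both, so its filled symbols add no support to the agreement.

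Depleted libraries were then added, and genes were counted whose CPM kept the lines apart in every library. Over 10 HEK and 16 K562 libraries PSMD5 and PSMD14 were above in K562 with no overlap of CPM (2 of 44, background 6.13%) and PSMB4 was above in HEK (1 of 44, background 7.91%). PSMB4, a structural subunit of the beta ring, ran from 496 to 691 CPM in HEK and from 242 to 479.7 in K562. Without the 3 shallow Ribo-Zero Plus libraries PSMA5, PSMB1, PSMC2, PSMD5, PSMD14, PSMG1 and PSMG2 were above in K562 (7 of 44, background 9.8%) and PSMB4 and PSMD10 above in HEK (2 of 44, background 11.5%).

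**Figure D3:**
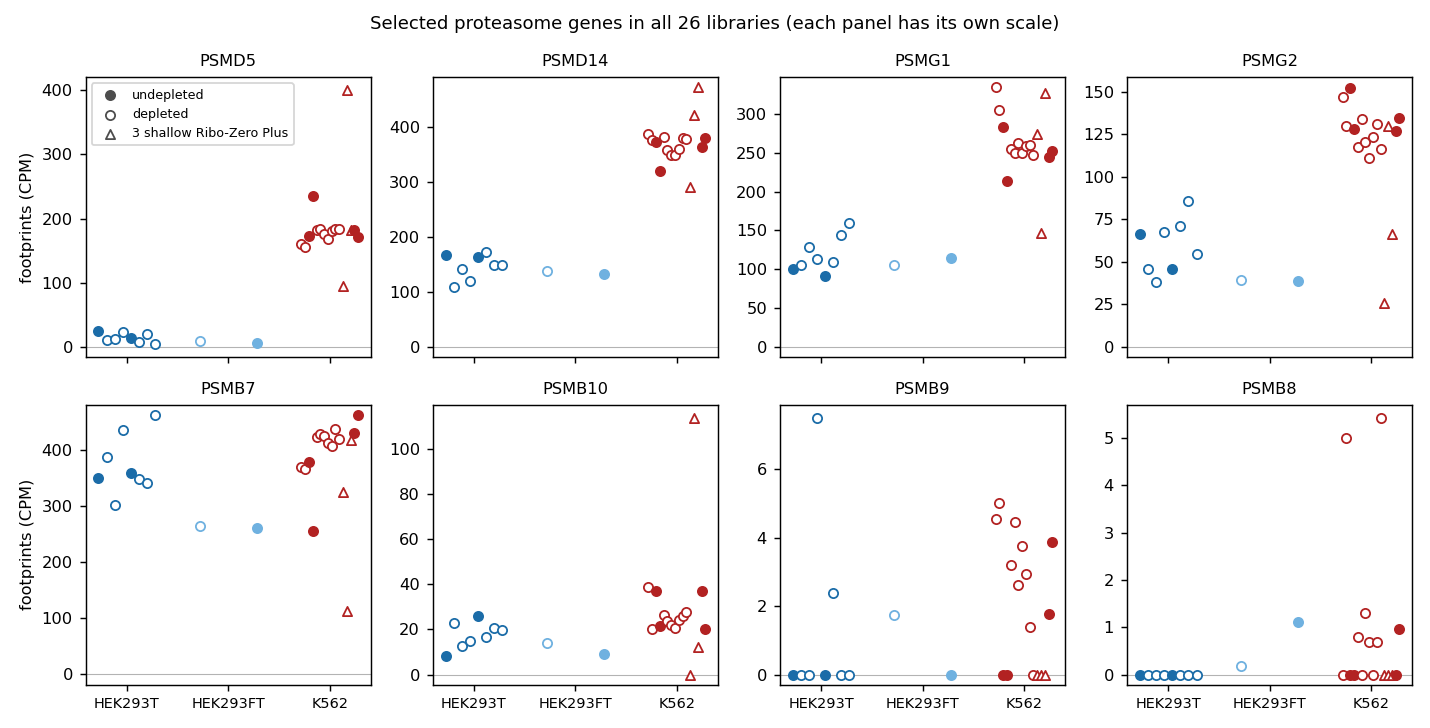
Footprints in CPM for 8 genes in each of the 26 libraries by cell line. Filled symbols are undepleted, open symbols depleted and triangles the 3 shallow Ribo-Zero Plus libraries. PSMD5 and PSMD14 are higher in every K562 library than in any HEK library, and PSMB8 and PSMB9 reach at most 5.43 and 7.5 CPM.

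The partners of the proteasome, a list of 21 receptors, deubiquitinases, ligases, shuttles and transcription factors outside the symbol family, were all tested in K562 against HEK293T. UCHL5, UBLCP1, POMP, USP14 and NGLY1 were called higher (5 of 21, background 20.8%) and UBQLN1, UBQLN2 and UBE3C lower (3 of 21, background 18.3%), with a median log2 fold change of 0.48 beside 0.04 over all genes. With total count scaling UCHL5, USP14 and NGLY1 were higher (3 of 21, background 15.9%) and UBQLN1, UBQLN2, UBE3C and VCP lower (4 of 21, background 23.6%). The deubiquitinases USP14 and UCHL5, which trim chains at the base, had log2 fold changes of 0.96 ± 0.21 and 1.05 ± 0.23. NGLY1, the enzyme that activates NFE2L1 by removing its sugars, had 29.7 ± 5.14 CPM in HEK293T and 98.6 ± 9.93 in K562 (SD, n = 2 each), a log2 fold change of 1.90 ± 0.43. The ubiquilin shuttles UBQLN1 and UBQLN2 had -0.67 ± 0.20 and -0.91 ± 0.33.

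The third set of comparisons was between each depletion kit and undepleted libraries of the same table. In HEK293T 40 of the 48 genes passed the filter, and none was called after any kit. With NEBNext, which digests ribosomal RNA with RNase H after hybridising DNA oligos, 0 of 40 were called by edgeR's quasi-likelihood test (background 3.24%) and 0 by DESeq2. An unadjusted p under 0.05 was seen for 4 of the 40, beside 638 of all 4410 genes tested. Fitted log2 fold changes ran from -0.56 to 0.63, and no gene reached a mean of 100 counts a library. With Ribo-Zero Gold, which pulls ribosomal RNA out on beads, it was 0 of 40 (background 0.068%; DESeq2 0, unadjusted 1), and with RiboCop, also a bead method, 0 of 40 (background 0%; DESeq2 0, unadjusted 3). At this depth of 120019 to 421521 counts the standard errors were wide: PSMA2 had 422 CPM after Ribo-Zero Gold and 344 undepleted, a log2 fold change of 0.28 with a 95% interval of -0.07 to 0.63. PSMD2 had -0.25 (-0.54 to 0.05), PSMA4 0.26 (-0.03 to 0.55) and PSMB3 -0.06 (-0.38 to 0.27). With RiboCop PSMB1 had -0.01 (-0.32 to 0.31). Differences smaller than these intervals were not detectable.

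In K562 NEBNext was tested over both fragment sizes, with 1 residual degree of freedom. PSMA5 alone was called of 40 (background 2.72%), at 705 and 621 CPM with NEBNext against 421 and 469.5 undepleted, for 20 to 34 nt and 20 to 60 nt. Its log2 fold change was 0.70 ± 0.20 (edgeR, adjusted p = 0.0282), and it was not called by DESeq2 or with total count scaling. In HEK293T PSMA5 had 323 and 293 CPM with NEBNext against 325 and 371 undepleted and was not called. A test of the difference in NEBNext effect between the lines, added after seeing the data, called 0 of 41 genes by edgeR (background 0.296%). Of the 41 genes 4 had an unadjusted p under 0.05, beside 392 of all 4736. Of 39 genes tested in both lines 23 had the same sign.

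The K562 kit table was deeper, and no proteasome gene was called after its replicated methods. FastSelect called 0 of 45 (background 0.0197%; unadjusted 1), riboPools 0 of 45 (background 0.0887%; unadjusted 0), riboPools eluted cold 0 of 45 (background 0.237%; unadjusted 1), and cold against standard elution 0 of 45 (background 0.0296%; unadjusted 1). DESeq2 also called 0 in each. Of all 10142 genes, 559, 586, 634 and 619 had an unadjusted p under 0.05 in these comparisons, in that order. Of the genes that averaged 100 counts or more, the lowest and highest log2 fold changes after FastSelect were those of PSMC4 at -0.11 (95% interval -0.25 to 0.03) and PSME3 at 0.18 (0.02 to 0.34). After riboPools they were those of PSMG2 at -0.18 (-0.39 to 0.03) and PSMB5 at 0.11 (-0.04 to 0.25). After cold elution they were those of PSMB3 at -0.11 (-0.20 to -0.01) and PSMF1 at 0.13 (-0.08 to 0.34), and between elutions those of PSMG4 at -0.08 (-0.37 to 0.20) and PSMD9 at 0.23 (0.01 to 0.45). Over 43 genes, those other than the immunoproteasome and tissue-specific ones, the log2 ratios of the 6 libraries to undepleted had SDs of 0.0748 to 0.109, where counting error gave 0.0934 to 0.112. The undepleted replicates differed from each other by an SD of 0.155 with 0.160 from counting.

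Ribo-Zero Plus, an enzymatic method, was tested with 1 library, which was assumed to vary like the replicated groups. There 6 of 45 were called (background 20.4%), 3 higher (background 8.99%) and 3 lower (background 11.4%), with DESeq2 calling 0. The 43 genes had an SD of 0.244 where counting gave 0.118. PSMG3 had 39.1 CPM against 21.1 and 18.4 undepleted, at 1.0 ± 0.27 on the log2 scale by edgeR (adjusted p = 0.00463). With all 4 Ribo-Zero Plus libraries in 1 additive fit PSMG3 was at -7.40, and 0 of 44 genes were higher and 9 lower. The share over all genes in that fit is not given here. PSMG3 had 0 counts in the 3 shallow libraries, where the floor allows up to 16.2 to 25.7 CPM. The value of -7.40 thus rests on 0 counts near the undepleted level. PSMB5 had 302 CPM against 247 and 252, at 0.30 ± 0.09. PSMB8 had 10 counts against 0 and 1. PSMA4 had 370.1 CPM against 444 and 445, at -0.24 ± 0.07, PSMD13 158 against 215 and 199, at -0.37 ± 0.11, and PSME1 40.2 against 68.7 and 52.3, at -0.58 ± 0.21. PSME1 was at -0.36 without undepleted replicate 1, where it was not called, and the count of called genes was then 3.

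With oligos added 19 of 45 were called, 4 higher (background 9.5%) and 15 lower (background 19.9%), with formaldehyde 16, 1 higher (background 7.31%) and 15 lower (background 18.4%), and with both 16, 3 higher (background 9.36%) and 13 lower (background 20.7%). Over both directions the backgrounds were 29.4%, 25.7% and 30.1%. In these 3 libraries the median of all genes fell by 0.64, 1.25 and 0.81 on the log2 scale against undepleted under TMM scaling. The median of the 45 fell by 0.16, 0.58 and 0.18. In CPM, without TMM, the median log2 ratio of the 43 genes was 0.006, -0.283 and 0.007. Proteasome genes took 1.12%, 1.11% and 1.19% of counts there, beside 1.19% in both undepleted libraries. The part of low depth in the gap between the medians of all genes and of the 45 was not tested. Scaled by total counts the splits were 5 higher and 11 lower, 3 and 8, and 5 and 8, and by DESeq2 3 and 3, 2 and 2, and 3 and 4. The backgrounds above belong to edgeR with TMM scaling, and no share over all genes stands beside the splits of the other settings. Those splits thus cannot be set against a background. The proteasome genes did not move together: log2 ratios of the 43 had SDs of 0.717, 1.12 and 0.995, against 0.410, 0.692 and 0.521 from counting. With oligos the higher genes were PSMB10, PSMD5, PSMD10 and PSMD11, and the lower ones PSMA2, PSMA4, PSMA6, PSMB3, PSMB4, PSMB7, PSMC1, PSMC4, PSMD1, PSMD4, PSMD6, PSMD7, PSMD8, PSMG1 and PSMG3. With formaldehyde PSMC3 was higher, and PSMA1, PSMA4, PSMA5, PSMB1, PSMB2, PSMB7, PSMB10, PSMD4, PSMD5, PSMD8, PSMD9, PSME2, PSME3, PSMG2 and PSMG4 were lower. With both PSMA5, PSMD7 and PSMD11 were higher, and PSMA1, PSMA4, PSMB1, PSMB4, PSMB6, PSMC2, PSMC3, PSMD1, PSMD13, PSME1, PSME3, PSMG2 and PSMG3 were lower. The same gene could go either way: PSMD5 had a log2 fold change of 1.03 with oligos and -1.14 with formaldehyde, and PSMA5 -0.99 with formaldehyde and 0.52 with both. PSME2 had 0 counts with formaldehyde, which allows up to 25.7 CPM beside 91.6 and 90.1 undepleted, and 24 counts with both. PSME1 had 8 counts with formaldehyde and 0 with both, which allows up to 18.2 CPM beside 68.7 and 52.3 undepleted. PSMB7 had 21 counts with oligos, 38 with formaldehyde and 69 with both, or 114, 326 and 418 CPM beside 429.8 and 461 undepleted. The SD of the 14 core densities, 0.630 and 0.631 in undepleted K562, was 0.847, 0.710 and 1.01 in these 3 libraries.

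In HEK293FT the custom oligos were compared in 1 library each way, so no test was made and a 2-fold change counts as called. No gene of 44 passed it (background 4.6%), and at 1.5-fold 1 did, PSMB10, with 81 counts against 8 and a ratio of 1.59 (exact 95% interval 0.768 to 3.80, background 14.3%). PSMD9, with 353 and 73 counts, had a ratio of 0.758 (0.588 to 0.989), and the SD of the 43 log2 ratios was 0.149 with 0.165 from counting.

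**Figure D4:**
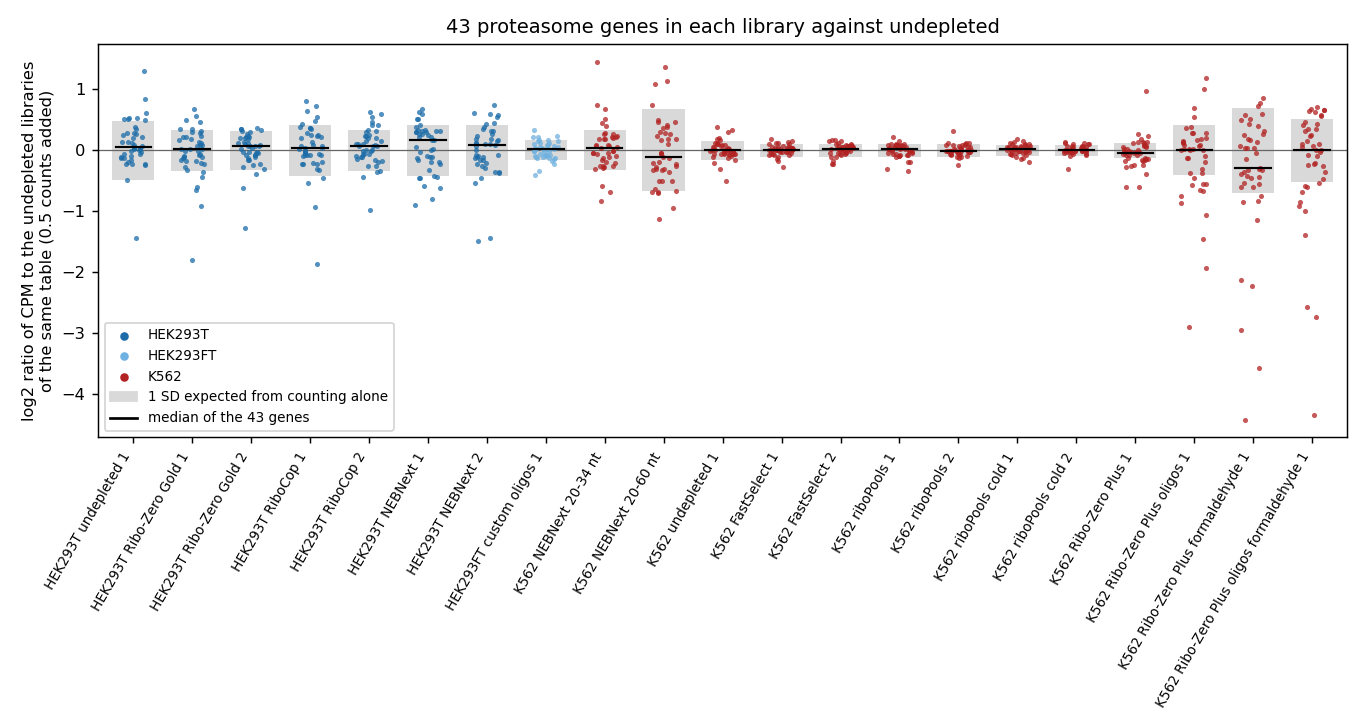
Log2 ratio of CPM to the undepleted libraries of the same table (same fragment size for the size-selection table) for 43 genes in each library, with 0.5 counts added. Undepleted replicate 1 is set against replicate 2. Grey bars are 1 SD expected from counting, black lines the medians. The points spread widest, with SDs of 0.717 to 1.12, in the 3 shallow Ribo-Zero Plus libraries.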

How the data were processed

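Ribosome footprints per coding sequence were used as whole-number counts, as deposited by the authors in 4 tables, which carry no normalization. STAR and CASAVA 1.8 and the builds GRCh38 and hg38 are named in the submitters' processing notes, and counting rules are not given in the sources used here. The deposited RPM tables rescale the same counts and were not used. Rows were joined by transcript, with coding lengths from GENCODE 29 (97.51% of transcripts matched). Each table was tested with edgeR 4.0.16 (TMM scaling, default low-count filter, quasi-likelihood test, Benjamini-Hochberg adjustment over all genes tested, threshold 0.05), with 1 term per group, or depletion and size as additive terms in the size-selection table. Fold changes are given ± SE, and their 95% intervals use the normal approximation. The pipeline was tested on simulated data. DESeq2 1.42.0, other scalings, no filter, a replicate block, fewer groups and left-out replicates were alternatives. Every gene of the symbol rule may be named, those called first, and where none was called the 2 highest and 2 lowest with a mean of 100 counts. Some list genes are not reported here. The genes and lists were chosen with earlier results of these data known. The labels do not say what a replicate number marks, so the block was used as an alternative only. The RiboCop replicates differed by no more than sampling noise (chi-square p = 0.103) at 156200 and 290502 counts and were kept as 2.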

Additional observations from a re-analysis of the deposited data

How the results depend on the processing

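The count of proteasome genes called in K562 against HEK293T was 18 and ran from 8 to 17 when 1 library was left out (8 without HEK293T undepleted replicate 2), and was 8 with the K562 size-selection libraries in place of the kit table. With those libraries set against HEK293FT PSMB3 reversed to -0.13. DESeq2 called 0 genes after NEBNext in K562, as did total count scaling, 0 after Ribo-Zero Plus, and 6, 4 and 7 after Ribo-Zero Plus with oligos, formaldehyde or both. Without either undepleted replicate the Ribo-Zero Plus count ran from 3 to 6, and those of the 3 shallow libraries were 17, 15 and 14 to 16. With the 4 Ribo-Zero Plus libraries in 1 additive fit PSMG3 reversed to -7.40, a value that rests on 0 counts in the 3 shallow libraries. At 1.5-fold HEK293FT gave 1 gene. The median base ATPase density relative to the core in HEK293T, 0.394, was 0.380 with 15 codons at the start and 5 at the end taken off and 0.363 against the mean of the core. Against the mean the lid was at 0.399 in HEK293T and 0.409 in K562. The cause of these shifts was not tested. Over all genes, DESeq2 called 75 where edgeR called 143 after NEBNext in HEK293T, 1 where it called 3 after Ribo-Zero Gold, 26 where it called 101 after NEBNext in K562 (60 with total count scaling), 33 where it called 2065 after Ribo-Zero Plus, 910, 870 and 1136 where it called 2978, 2604 and 3052 in the shallow libraries, and 0 where it called 9 and 24 after riboPools with standard and cold elution. Of 151 values of counts and levels under other settings 137 were marked as the same and 14 as moved. The mark of same still covered changes in size and direction. For K562 against HEK293T, 18 called genes (16 higher, 2 lower) became 15 (8 and 7) with total count scaling. With all undepleted libraries of the 4 tables there were 22 of 41 (14 and 8). Shares over all genes are not given here for that setting or for the size-selection libraries in place of the kit table. Those counts thus cannot be set against a background. Of 265 values of single genes 192 kept the call, 71 kept the direction only and 2 reversed. A replicate block changed no call of a proteasome gene (18 in K562 against HEK293T, 0 after each replicated kit). Deviations of same-numbered libraries from their group means had correlations of 0.06 to 0.14 in HEK293T, over 0.1 in 4 of 6 pairs of groups, and -0.04 to 0.04 in the K562 kit table, so that a pairing in HEK293T was not settled. Leaving out a library of the K562 size-selection table leaves no residual degree of freedom, and was not run. Depth limits the HEK293T comparisons, with 120019 to 421521 counts a library.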
